A study of Homo sapiens with 8 samples.

Results

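The unfolded protein response and the integrated stress response were followed in HepG2 cells given the BET bromodomain inhibitors JQ1 or RVX-208. The set consists of 42 genes of the PERK/ATF4, IRE1/XBP1 and ATF6 arms with their targets, and its members were found by gene symbol in the probe set annotation. Of the 42 members, 40 had a probe set of their own among the 17845 genes tested. The only probe set listed for ATF6B is shared with TNXB and its values are not reported, and PDIA6 had no probe set in the annotation used and was not analysed here. HepG2 is a human hepatoblastoma-derived liver cell line. RNA was taken 4 h after the start of treatment and measured on Affymetrix Human Gene 1.0 ST arrays, which carry several probes along each transcript. The vehicle group had 3 arrays (DMSO alone), the JQ1 group had 2 arrays (500 nM) and the RVX-208 group had 3 arrays (5000 nM); all cultures carried DMSO at a final 0.1%. A further JQ1 sample is mentioned in the study design and was not analysed here. The doses of the 2 inhibitors differ, so each comparison between them is between the treatments as given. The labels do not say that replicates came from separate cultures, and p-values then measure only the spread between these samples, which may be technical.

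When unfolded proteins build up in the endoplasmic reticulum (ER), 3 membrane sensors respond: the kinase PERK (gene EIF2AK3), the kinase and RNase IRE1 (gene ERN1) and the membrane-bound transcription factor ATF6. PERK and its sister kinases phosphorylate the initiation factor eIF2alpha, which lowers translation in general while favouring translation of ATF4, and ATF4 then induces genes of amino acid supply, feedback and cell death. IRE1 splices the XBP1 mRNA into the form that encodes an active factor, and XBP1 and ATF6 induce chaperones and the machinery of ER-associated degradation. Liver cells secrete much protein and depend on this system. BET proteins bind acetylated histones and aid transcription; JQ1 occupies both of their bromodomains, while RVX-208 prefers the second one.

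Promoters are shown for 4 members that hold a match to a motif of the arms and whose results differ. HERPUD1 and PPP1R15B had the largest rises with JQ1, HSPA5 is the reference target of the ER arms, and XBP1 was lower with JQ1. TRIB3, which had the largest fall, and DNAJC3, which rose, held no match in the windows searched. Binding to the matches was not measured, and a link between motif and response was not tested. Each sequence is the 250 bases before the RefSeq transcription start, read 5′ to 3′ in the direction of the gene, from RefSeq on GRCh38.p14, with the motif match in capitals. HERPUD1 lies at chr16:56931892-56932141 (plus strand), PPP1R15B at chr1:204411818-204412067 (minus strand), HSPA5 at chr9:125241344-125241593 (minus strand) and XBP1 at chr22:28800570-28800819 (minus strand, 1 of its 2 listed starts). In HERPUD1 the first capitals match the C/EBP-ATF response element, a type of site that ATF4 binds, and the later ones match the ER stress response element II.
HERPUD1: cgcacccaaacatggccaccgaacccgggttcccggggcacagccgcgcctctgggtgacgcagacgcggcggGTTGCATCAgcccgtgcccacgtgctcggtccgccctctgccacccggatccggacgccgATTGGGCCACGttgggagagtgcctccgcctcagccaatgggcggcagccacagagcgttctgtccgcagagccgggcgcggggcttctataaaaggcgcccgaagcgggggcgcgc
PPP1R15B: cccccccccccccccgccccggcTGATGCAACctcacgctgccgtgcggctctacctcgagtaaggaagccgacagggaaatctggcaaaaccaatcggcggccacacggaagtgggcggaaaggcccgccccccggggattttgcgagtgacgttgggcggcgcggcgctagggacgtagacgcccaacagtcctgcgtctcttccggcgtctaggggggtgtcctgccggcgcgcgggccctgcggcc
HSPA5: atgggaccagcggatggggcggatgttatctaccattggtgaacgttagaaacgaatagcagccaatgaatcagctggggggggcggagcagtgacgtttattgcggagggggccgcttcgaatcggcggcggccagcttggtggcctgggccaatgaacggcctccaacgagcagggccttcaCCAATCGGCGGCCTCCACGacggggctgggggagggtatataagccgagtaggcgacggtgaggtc
XBP1: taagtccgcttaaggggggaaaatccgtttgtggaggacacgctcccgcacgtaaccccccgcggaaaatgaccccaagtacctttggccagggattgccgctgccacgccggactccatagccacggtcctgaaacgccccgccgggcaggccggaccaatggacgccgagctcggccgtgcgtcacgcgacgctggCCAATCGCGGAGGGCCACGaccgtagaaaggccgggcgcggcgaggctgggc
The capitals in PPP1R15B match the C/EBP-ATF response element, and those in HSPA5 and XBP1 match the ER stress response element.

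Motifs were searched on both strands of 300-base windows, from 250 bases before to 50 bases after each start. The C/EBP-ATF response element was written TGATGNAAN and in a strict form TTGCATCA, whose matches all lie within those of the first form. The ER stress response element was CCAAT, any 9 bases and CCACG; element II was ATTGG, any 1 base and CCACG; the UPR element was TGACGTGG. RefSeq windows were found for 40 of the 42 members (52 windows); EIF2AK1 and PSPH had none in the table. The C/EBP-ATF element was in 6 member windows, those of CEBPG, CHAC1, PPP1R15B, ASNS, FGF21 and HERPUD1, or 11.5% of member windows against 3.61% of all 35116 windows. Its strict form was in 5 member windows, 9.62% against 0.866% of all windows. The ER stress response element was in 6 member windows, those of XBP1, HSPA5, HSP90B1, PDIA6, CALR and CRELD2, which is 11.5% against 0.0769% of all windows. Element II was in 3 member windows, those of HYOU1, SDF2L1 and HERPUD1, which is 5.77% against 0.0541%. The UPR element was in the HYOU1 window alone among members, where it overlaps an element II match, which is 1.92% against 0.729%. Several of these genes are the ones in which the elements were first described, so the shares describe the set and are no independent finding. Members with a C/EBP-ATF element included ones called higher with JQ1 (PPP1R15B, HERPUD1 and ASNS), 1 called lower (CEBPG) and others not called (CHAC1 and FGF21).

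**Figure D1:**
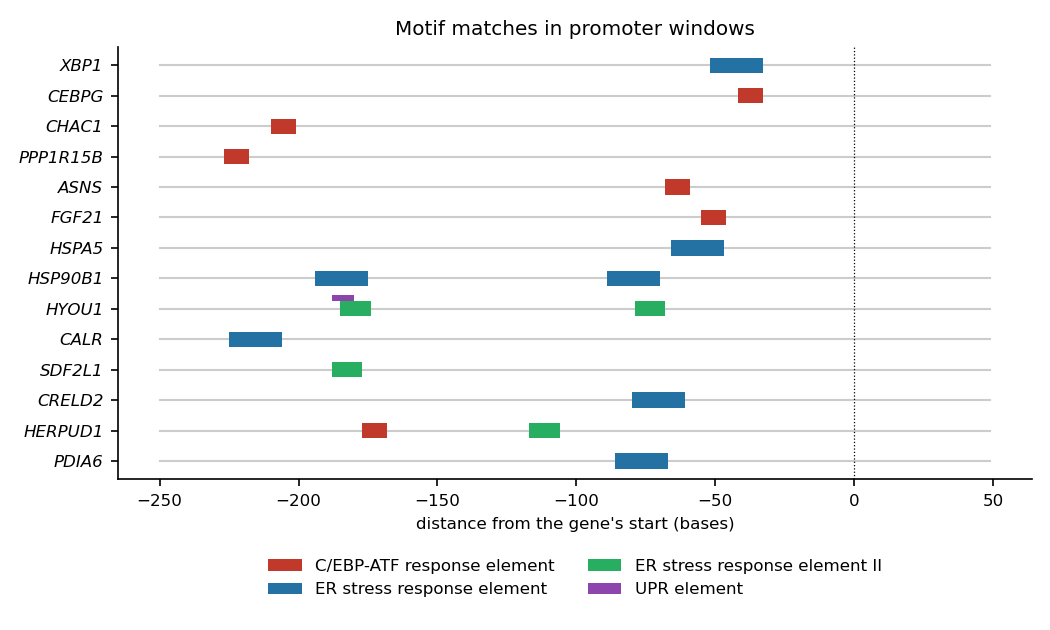
Motif matches in the promoter windows of the members that have one, placed by distance in bases from the RefSeq transcription start, with one row per gene and one colour per motif. Matches lie at position −177 and −117 in HERPUD1, −227 in PPP1R15B, −66 in HSPA5 and −52 in XBP1, counted to the first base of the match.

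The values are log2 array signals, and a fold change is a difference of group means on that scale, given with its standard error (SE) from a limma model of all 8 arrays. A gene was called where its Benjamini-Hochberg adjusted p over all 17845 genes was below 0.05 (two-sided). The array medians lay between 7.26 and 7.31, and replicates correlated at r 0.9962 to 0.9973 across probe sets. The number of arrays, above all the 2 JQ1 arrays, limits the precision. HEXIM1, a gene known to rise under BET inhibition, rose by 1.49 ± 0.06 with JQ1 (adjusted p = 9.94e-06) and by 0.48 ± 0.05 with RVX-208 (adjusted p = 0.00677). SERPINI1, another such gene, rose by 0.93 ± 0.16 with JQ1 (adjusted p = 0.00429) and differed by 0.38 with RVX-208, which was not called (adjusted p = 0.14). MYC, a transcription factor gene that BET inhibitors often lower, fell by 0.67 ± 0.06 with JQ1 (adjusted p = 0.000163) and by 0.22 ± 0.05 with RVX-208 (adjusted p = 0.0482), a call kept in 2 of the 8 fits that leave out 1 array. The 10 hepatocyte markers tested averaged 12.12 to 12.18 per array, and 1 of them was called: FOXA2, a liver transcription factor gene, fell by 0.48 ± 0.07 with JQ1 (adjusted p = 0.00199), and JQ1 against RVX-208 gave −0.45 ± 0.07 (adjusted p = 0.00598). The 7 fibroblast markers averaged 5.83 to 5.91 in DMSO, 5.70 to 5.77 with JQ1 and 5.65 to 5.73 with RVX-208, and the 6 blood cell markers 6.58 to 6.84 over all arrays. Within these lists DCN, LUM and PTPRC read 3.21 to 3.64, COL1A1 7.32 to 7.55, CD14 6.66 to 7.10 and LYZ 13.16 to 13.31. The fibroblast marker PDGFRB was called lower with JQ1 (−0.30 ± 0.06, adjusted p = 0.00574) and with RVX-208 (−0.24 ± 0.05, adjusted p = 0.0362). The part of these marker differences in the results was not tested. No detection calls were used, and in bulk RNA fewer cells of a type and less RNA per cell cannot be told apart.

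JQ1 changed the set in both directions. Of the 40 members tested, 14 rose and 5 fell against DMSO, so that 47.5% were called beside 22.8% of all genes tested (10.7% higher and 12.0% lower). The members were chosen with earlier results of these data known, so the 2 shares are no independent comparison. The genes that rose included ATF4 and its partner DDIT3, the phosphatase subunits PPP1R15A and PPP1R15B, ER co-chaperones such as DNAJC3 and MANF, and the degradation genes HERPUD1, EDEM1 and SYVN1. Those that fell were TRIB3, GDF15, XBP1, EIF2AK4 and CEBPG. Changes were modest in size, from 1.77-fold lower for TRIB3 to 1.61-fold higher for PPP1R15B. The median member difference was 0.136 on the log2 scale beside −0.040 over all genes. The JQ1 and DMSO arrays did not overlap for 30 members (24 above, 6 below), beside 50.4% of all genes whose groups did not overlap. Calls are more common among bright genes: of the 8547 genes with a DMSO mean of at least 7.5, a level chosen after seeing the data, 34.4% were called, and of the 37 members at that level 51.4%.

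The scale matters for the smaller rises. The 10 housekeeping genes tested had a median difference of 0.131 with JQ1, close to that of the members, with 2 called higher. Their differences ran from 0.00 for GAPDH to 0.33 for PPIA and 0.42 for B2M. Centring the arrays on the mean of those genes moved the median of all genes from −0.040 to −0.206 and that of the members from 0.136 to −0.030. Such centring shifts every gene of an array alike and so leaves the difference between the 2 medians, 0.176, fixed by construction; cyclic loess, which is not so bound, gave 0.126. With the arrays centred on housekeeping genes, the count of members called higher fell from 14 to 9, and the count called lower rose from 5 to 10. Cyclic loess gave 15 higher and 5 lower. With any 1 array left out, 9 to 15 members were called higher, the lowest count being that without JQ1 replicate 1, and 4 to 5 lower. Calls for 12 of the 19 members held in all 17 alternative fits, namely EIF2AK4, ATF4, XBP1, TRIB3, SESN2, PPP1R15A, PPP1R15B, GDF15, MANF, DNAJC3, DNAJB9 and HERPUD1.

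**Figure D2:**
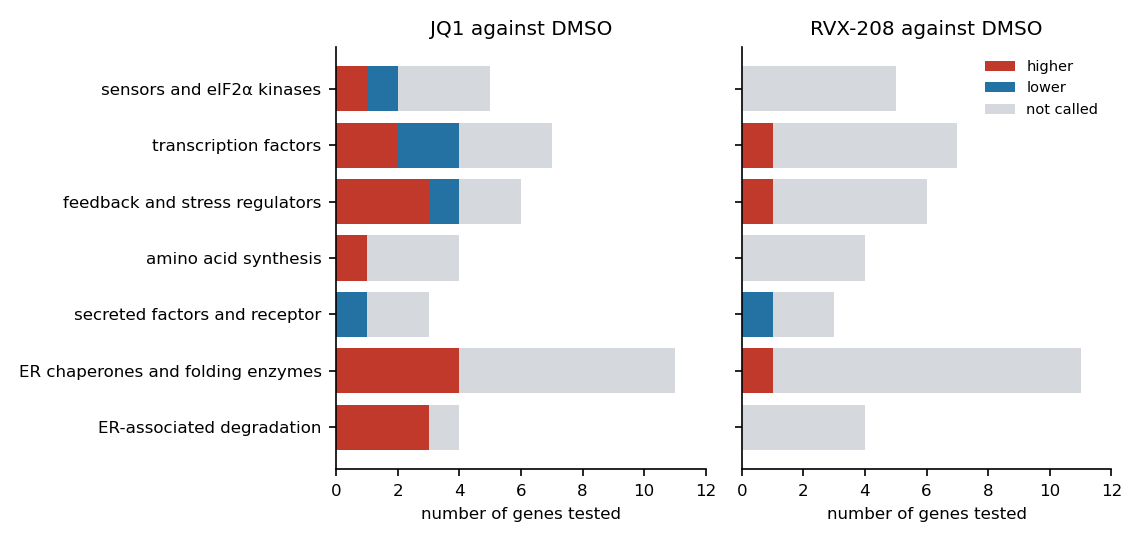
Members called higher, called lower and not called against DMSO for JQ1 (left) and RVX-208 (right), by role; bar length is the number of genes tested. With JQ1 every role holds at least 1 called member, while with RVX-208 4 members are called in all. Over all genes tested, 22.8% were called with JQ1 and 6.28% with RVX-208.

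Among the ER sensors and eIF2alpha kinases, 1 of 5 rose and 1 fell with JQ1, beside 10.7% of all genes called higher and 12.0% lower. EIF2AK4 encodes GCN2, the kinase that senses amino acid shortage. Its log2 signal was 10.37, 10.31 and 10.19 in DMSO, 9.95 and 9.96 with JQ1 and 10.12, 10.12 and 10.15 with RVX-208. All inhibitor arrays were below all DMSO arrays, with the JQ1 arrays lowest. It fell by 0.33 ± 0.06 with JQ1 (adjusted p = 0.00584) and differed by −0.16 ± 0.06 with RVX-208, which was not called (adjusted p = 0.113). EIF2AK4 was called lower with RVX-208 on the housekeeping scale (−0.26, adjusted p = 0.0233) and with an intensity trend in the variance (adjusted p = 0.0361). EIF2AK3, the ER-bound kinase PERK, read 9.15, 9.08 and 9.09 in DMSO, 9.28 and 9.46 with JQ1 and 9.30, 9.22 and 9.24 with RVX-208. It rose by 0.26 ± 0.07 with JQ1 (adjusted p = 0.024), and the JQ1 and RVX-208 arrays overlapped. That call was lost without DMSO replicate 2 (adjusted p = 0.0661), without DMSO replicate 3 (0.059), without JQ1 replicate 2 (0.167) and on the housekeeping scale (0.306).

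ERN1, the sensor IRE1, read 8.31, 8.33 and 8.28 in DMSO, 8.58 and 8.39 with JQ1 and 8.28, 8.19 and 8.21 with RVX-208. The JQ1 arrays lay above the DMSO arrays, 1 of them by far less than the other, and the RVX-208 arrays lay at or below the lowest DMSO value. The difference from DMSO was 0.18 ± 0.07 with JQ1 (adjusted p = 0.0898) and −0.08 ± 0.06 with RVX-208 (adjusted p = 0.39), neither of them called. JQ1 against RVX-208 gave 0.26 ± 0.07 (adjusted p = 0.0398), a call kept in 1 of the 8 fits that leave out an array (adjusted p 0.0321 to 0.238). EIF2AK1, the haem-regulated kinase, differed by 0.13 with JQ1 (adjusted p = 0.0983) and 0.10 with RVX-208 (0.184). EIF2AK2, the double-stranded RNA-dependent kinase PKR, differed by −0.08 and −0.01 (adjusted p = 0.516 and 0.939). On the housekeeping scale EIF2AK2 was called lower with JQ1 (−0.25, adjusted p = 0.0236).

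Of the 7 transcription factors tested, 2 rose and 2 fell with JQ1, beside 10.7% of all genes called higher and 12.0% lower. ATF4, the factor that carries the integrated stress response to its targets, read 9.05, 9.19 and 9.06 in DMSO, 9.59 and 9.48 with JQ1 and 9.37, 9.31 and 9.33 with RVX-208. The 3 groups formed separate steps, with DMSO lowest and JQ1 highest. ATF4 rose by 0.44 ± 0.06 with JQ1 (adjusted p = 0.00178) and by 0.24 ± 0.06 with RVX-208 (adjusted p = 0.0478). The RVX-208 call was lost in each of the 8 fits that leave out 1 array (adjusted p 0.056 to 0.138). ATF4 is mainly controlled at translation, which these arrays do not measure.

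XBP1 moved the other way from ATF4. Its log2 signal was 11.71, 11.64 and 11.61 in DMSO, 11.28 and 11.16 with JQ1 and 11.58, 11.65 and 11.72 with RVX-208. The JQ1 arrays stood below all others, and the RVX-208 arrays spanned the DMSO range. XBP1 fell by 0.44 ± 0.07 with JQ1 (adjusted p = 0.00211) and differed by 0.00 with RVX-208 (adjusted p = 0.966, 95% confidence interval −0.14 to 0.13). The probe set does not separate the spliced from the unspliced mRNA, so IRE1 activity cannot be read from it.

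DDIT3, which encodes the pro-death factor CHOP, read 8.15, 8.06 and 7.93 in DMSO, 8.52 and 8.35 with JQ1 and 8.19, 8.22 and 8.18 with RVX-208. It rose by 0.39 ± 0.08 with JQ1 (adjusted p = 0.00834), a call lost without JQ1 replicate 1 (adjusted p = 0.0721). With RVX-208 the difference was 0.15 ± 0.07 (adjusted p = 0.209), although the arrays did not overlap. ATF6 read 10.48, 10.41 and 10.41 in DMSO, 10.57 and 10.57 with JQ1 and 10.52, 10.50 and 10.62 with RVX-208. Its differences were 0.14 ± 0.06 and 0.12 ± 0.05 (adjusted p = 0.123 and 0.189), and neither was called. ATF6 itself is activated by cleavage, which these arrays do not measure. CEBPG, which pairs with ATF4 on DNA, fell by 0.21 ± 0.06 with JQ1 (adjusted p = 0.0488); the call was kept without DMSO replicate 3 and lost without each of the other 7 arrays (adjusted p 0.0686 to 0.194). ATF5, a stress-induced relative of ATF4, differed by 0.19 with JQ1 (adjusted p = 0.0656) and −0.04 with RVX-208. CEBPB, an activator of liver and stress genes, differed by −0.02 and −0.14 (adjusted p = 0.907 and 0.18). On the housekeeping scale CEBPB was called lower with RVX-208 (−0.24, adjusted p = 0.0309).

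**Figure D3:**
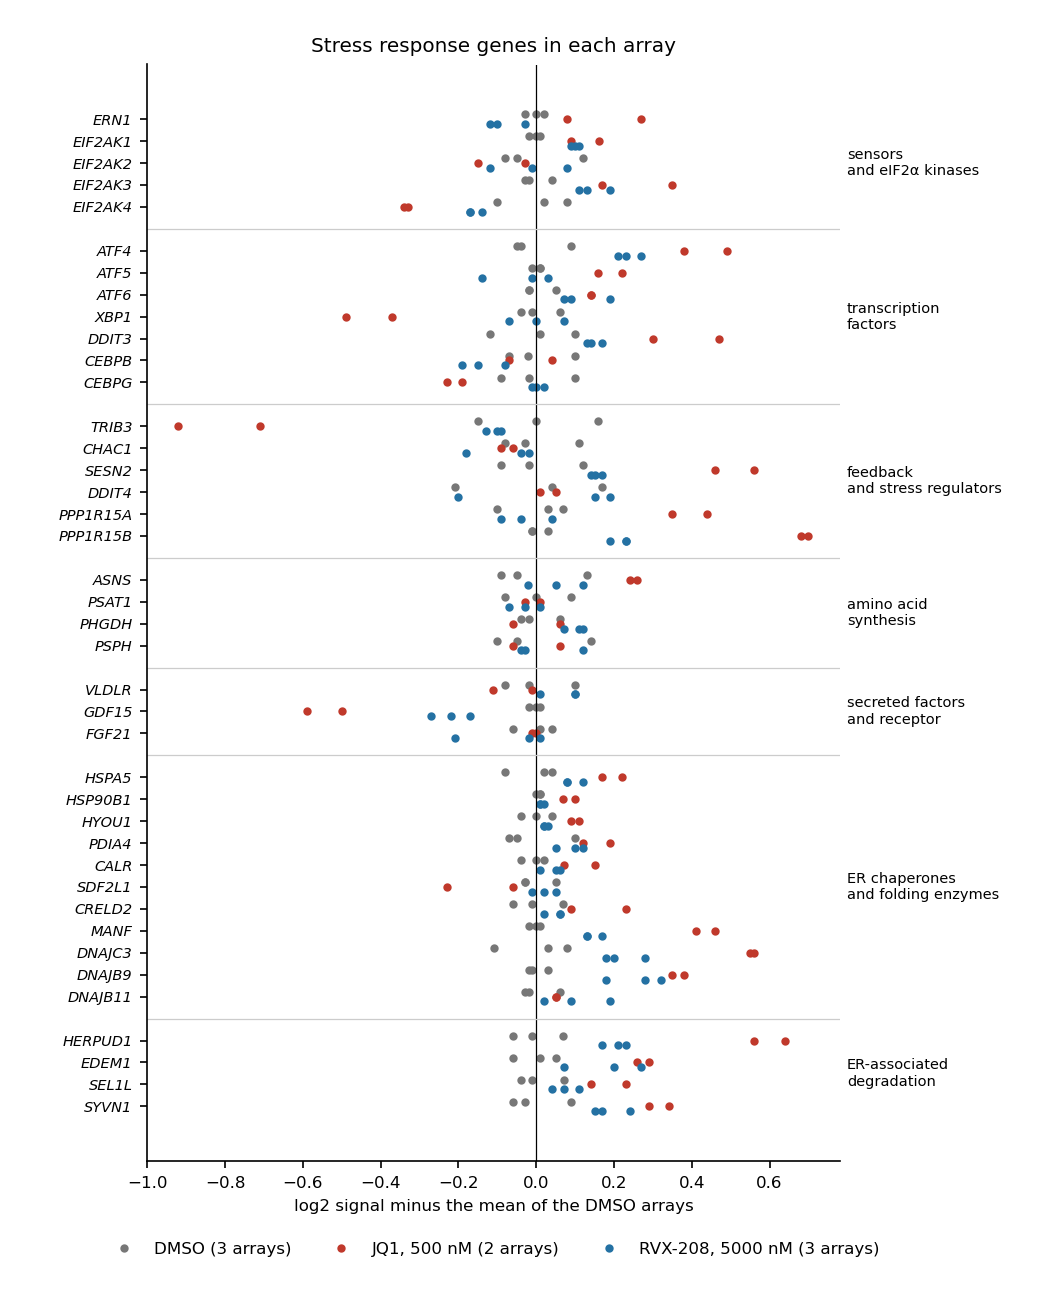
Log2 signal of the 40 members tested in each of the 8 arrays, minus the gene's mean over the DMSO arrays, grouped by role; each point is 1 array, grey for DMSO, red for JQ1 and blue for RVX-208. PPP1R15B steps up from DMSO through RVX-208 to JQ1, while XBP1 and TRIB3 are low in the 2 JQ1 arrays and within or near the DMSO range with RVX-208.

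The feedback and stress regulators held the largest rise and the largest fall among the members with JQ1. PPP1R15B encodes the constitutive subunit that guides the phosphatase to eIF2alpha. It read 9.87, 9.83 and 9.83 in DMSO, 10.54 and 10.52 with JQ1 and 10.07, 10.03 and 10.07 with RVX-208. The groups did not overlap, and their spread was small beside the steps between them. PPP1R15B rose by 0.69 ± 0.05 with JQ1 (1.61-fold, adjusted p = 6.37e-05) and by 0.21 ± 0.04 with RVX-208 (1.16-fold, adjusted p = 0.0337). JQ1 exceeded RVX-208 by 0.47 ± 0.05 (adjusted p = 0.000953). The RVX-208 call was kept in 2 of the 8 fits that leave out an array (adjusted p 0.0491 to 0.118).

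PPP1R15A, the stress-induced counterpart also called GADD34, read 7.85, 7.89 and 7.72 in DMSO, 8.26 and 8.17 with JQ1 and 7.78, 7.73 and 7.86 with RVX-208. Only the JQ1 arrays stood apart. It rose by 0.39 ± 0.07 with JQ1 (adjusted p = 0.00445) and differed by −0.03 with RVX-208 (adjusted p = 0.772, 95% confidence interval −0.17 to 0.11). JQ1 exceeded RVX-208 by 0.43 ± 0.07 (adjusted p = 0.00696), a call lost without JQ1 replicate 1 (adjusted p = 0.0592). SESN2, a stress-induced inhibitor of mTORC1 signalling, read 8.30, 8.44 and 8.23 in DMSO, 8.88 and 8.78 with JQ1 and 8.46, 8.47 and 8.49 with RVX-208. It rose by 0.51 ± 0.07 with JQ1 (adjusted p = 0.00143) and differed by 0.15 ± 0.06 with RVX-208 (adjusted p = 0.173). The SESN2 difference between the inhibitors, 0.36 ± 0.07 (adjusted p = 0.0155), was lost without JQ1 replicate 1 (adjusted p = 0.111).

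TRIB3, a pseudokinase induced by ATF4 and CHOP that restrains them in turn, read 9.13, 9.29 and 8.98 in DMSO, 8.42 and 8.21 with JQ1 and 9.04, 9.00 and 9.03 with RVX-208. The JQ1 arrays lay below every other array, while the RVX-208 arrays lay within the DMSO range. TRIB3 fell by 0.82 ± 0.10 with JQ1 (1.77-fold lower, adjusted p = 0.000569) and differed by −0.11 ± 0.09 with RVX-208 (adjusted p = 0.432). JQ1 was below RVX-208 by a log2 difference of −0.71 ± 0.10 (adjusted p = 0.00271). CHAC1, a glutathione-degrading enzyme induced by ATF4, differed by −0.08 with either inhibitor (adjusted p = 0.513 with JQ1 and 0.463 with RVX-208). Its signal was low, with a DMSO mean of 6.34. On the housekeeping scale CHAC1 was called lower with JQ1 (−0.24, adjusted p = 0.0468). DDIT4, an inhibitor of mTORC1 signalling, differed by 0.03 and 0.05 (adjusted p = 0.906 and 0.818), with a wide interval of −0.28 to 0.34 for JQ1.

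The amino acid synthesis genes, classical ATF4 targets, moved little: 1 of 4 rose with JQ1, beside 10.7% of all genes called higher. ASNS, asparagine synthetase, rose by 0.26 ± 0.08 (adjusted p = 0.0413). That call was lost without 6 of the 8 arrays in turn, with adjusted p of 0.0969 and 0.11 without DMSO replicates 1 and 2, 0.129 and 0.161 without JQ1 replicates 1 and 2, and 0.0517 and 0.062 without RVX-208 replicates 2 and 3. On the housekeeping scale the ASNS difference was 0.09 (adjusted p = 0.387). The serine synthesis enzymes PHGDH, PSAT1 and PSPH differed by 0.00, −0.01 and 0.01 with JQ1 (adjusted p = 0.972, 0.909 and 0.968). Their 95% confidence intervals ran from −0.13 to 0.14 for PHGDH, from −0.15 to 0.13 for PSAT1 and from −0.19 to 0.21 for PSPH. On the housekeeping scale PSAT1 was called lower with JQ1 (−0.18, adjusted p = 0.0367). With RVX-208 the 4 genes differed by −0.03 to 0.10, and none was called.

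Of the 3 secreted factors and receptors, only GDF15 was called. Over all genes 22.8% were called with JQ1 and 6.28% with RVX-208. GDF15, a stress-induced hormone that curbs appetite, read 11.75, 11.77 and 11.78 in DMSO, 11.27 and 11.18 with JQ1 and 11.50, 11.60 and 11.55 with RVX-208. The groups formed separate steps in the order opposite to ATF4, with JQ1 lowest. GDF15 fell by 0.55 ± 0.06 with JQ1 (adjusted p = 0.000321) and by 0.22 ± 0.05 with RVX-208 (adjusted p = 0.0411). The RVX-208 call was lost in all 8 fits that leave out 1 array (adjusted p 0.0528 to 0.129). FGF21, a liver hormone induced by ATF4, and VLDLR, a lipoprotein receptor, differed by 0.00 and −0.06 with JQ1 and by −0.07 and 0.07 with RVX-208. Neither gene was called, and the 95% confidence intervals for JQ1 ran from −0.17 to 0.17 for FGF21 and from −0.22 to 0.10 for VLDLR. Both signals were low, with DMSO means of 5.43 for FGF21 and 6.13 for VLDLR, and at such levels a change may go unseen. On the housekeeping scale VLDLR was called lower with JQ1 (−0.23, adjusted p = 0.0282).

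Of the 11 ER chaperones and folding enzymes tested, 4 rose with JQ1 and none was called lower, beside 10.7% of all genes called higher. Differences were above 0 for 10 of the 11, as they were for all 10 housekeeping genes. The median difference of the 11 was 0.159, which became −0.007 on the housekeeping scale. DNAJC3, a co-chaperone that also inhibits PERK, read 9.48, 9.53 and 9.34 in DMSO, 10.00 and 10.01 with JQ1 and 9.65, 9.63 and 9.73 with RVX-208. It rose by 0.55 ± 0.07 with JQ1 (adjusted p = 0.000714) and differed by 0.22 ± 0.06 with RVX-208, just short of a call (adjusted p = 0.0664). The RVX-208 arrays stood between the other groups without overlap.

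MANF, a secreted ER-resident survival factor, read 10.77, 10.74 and 10.76 in DMSO, 11.22 and 11.17 with JQ1 and 10.89, 10.89 and 10.93 with RVX-208. It rose by 0.44 ± 0.05 with JQ1 (adjusted p = 0.000543) and differed by 0.15 ± 0.05 with RVX-208 (adjusted p = 0.0838). DNAJB9, a co-chaperone of the IRE1 arm that holds IRE1 inactive, read 7.76, 7.80 and 7.75 in DMSO, 8.15 and 8.12 with JQ1 and 7.95, 8.05 and 8.09 with RVX-208. Its JQ1 and RVX-208 arrays were close to each other and all above DMSO. It rose by 0.36 ± 0.06 with JQ1 (adjusted p = 0.0027) and by 0.26 ± 0.05 with RVX-208 (adjusted p = 0.0298), the latter call kept in 3 of the 8 fits that leave out an array (adjusted p 0.0466 to 0.11). The difference between the inhibitors was 0.10, with a 95% confidence interval of −0.03 to 0.23.

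HSPA5, the chaperone BiP that binds and restrains the sensors, read 12.82, 12.80 and 12.70 in DMSO, 13.00 and 12.95 with JQ1 and 12.86, 12.86 and 12.90 with RVX-208. It rose by 0.20 ± 0.06 with JQ1 (1.15-fold, adjusted p = 0.0369). The call was kept without DMSO replicate 1 and lost without each of the other 7 arrays (adjusted p 0.0546 to 0.166), and it was also lost on the housekeeping scale (0.661). With RVX-208 the difference was 0.10 ± 0.05 (adjusted p = 0.245). The other ER chaperones were not called with either inhibitor. HSP90B1, a chaperone of the HSP90 family, differed by 0.08 with JQ1, HYOU1, a nucleotide exchange factor, by 0.10, PDIA4, a disulphide isomerase, by 0.16, and CALR, the lectin chaperone calreticulin, by 0.11. CRELD2, an ER stress-induced factor, differed by 0.16, DNAJB11, a co-chaperone of BiP, by 0.05, and SDF2L1, which works with DNAJB11, by −0.14. On the housekeeping scale SDF2L1 was called lower with JQ1 (−0.31, adjusted p = 0.0105).

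ER-associated degradation had the highest share of calls among the roles with JQ1: 3 of 4 members rose, beside 10.7% of all genes called higher. In all 4 the JQ1 arrays lay above the DMSO arrays, as they did for 3794 of all 17845 genes. The median difference was 0.295, and 0.130 on the housekeeping scale. HERPUD1, a membrane protein that assembles the degradation complex, read 10.62, 10.49 and 10.54 in DMSO, 11.19 and 11.11 with JQ1 and 10.78, 10.72 and 10.76 with RVX-208. The groups were separate, with RVX-208 between DMSO and JQ1. HERPUD1 rose by 0.60 ± 0.06 with JQ1 (1.52-fold, adjusted p = 0.000294) and differed by 0.20 ± 0.05 with RVX-208 (adjusted p = 0.0586).

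SYVN1, the ubiquitin ligase HRD1, read 9.17, 9.02 and 9.05 in DMSO, 9.42 and 9.37 with JQ1 and 9.32, 9.23 and 9.25 with RVX-208. It rose by 0.31 ± 0.06 with JQ1 (adjusted p = 0.00781), a call lost without JQ1 replicate 1 (0.0596) and on the housekeeping scale (0.131). With RVX-208 it differed by 0.19 ± 0.06 (adjusted p = 0.08). EDEM1, a lectin that routes misfolded glycoproteins to degradation, rose by 0.28 ± 0.07 with JQ1 (adjusted p = 0.0218), a call lost without DMSO replicate 2 (0.065), JQ1 replicate 1 (0.0808) or JQ1 replicate 2 (0.108) and on the housekeeping scale (0.255). SEL1L, the adaptor of HRD1, differed by 0.18 ± 0.06 (adjusted p = 0.057). It was called higher in some alternatives, such as cyclic loess (0.17, adjusted p = 0.0487), and not in others, such as the housekeeping scale.

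**Figure D4:**
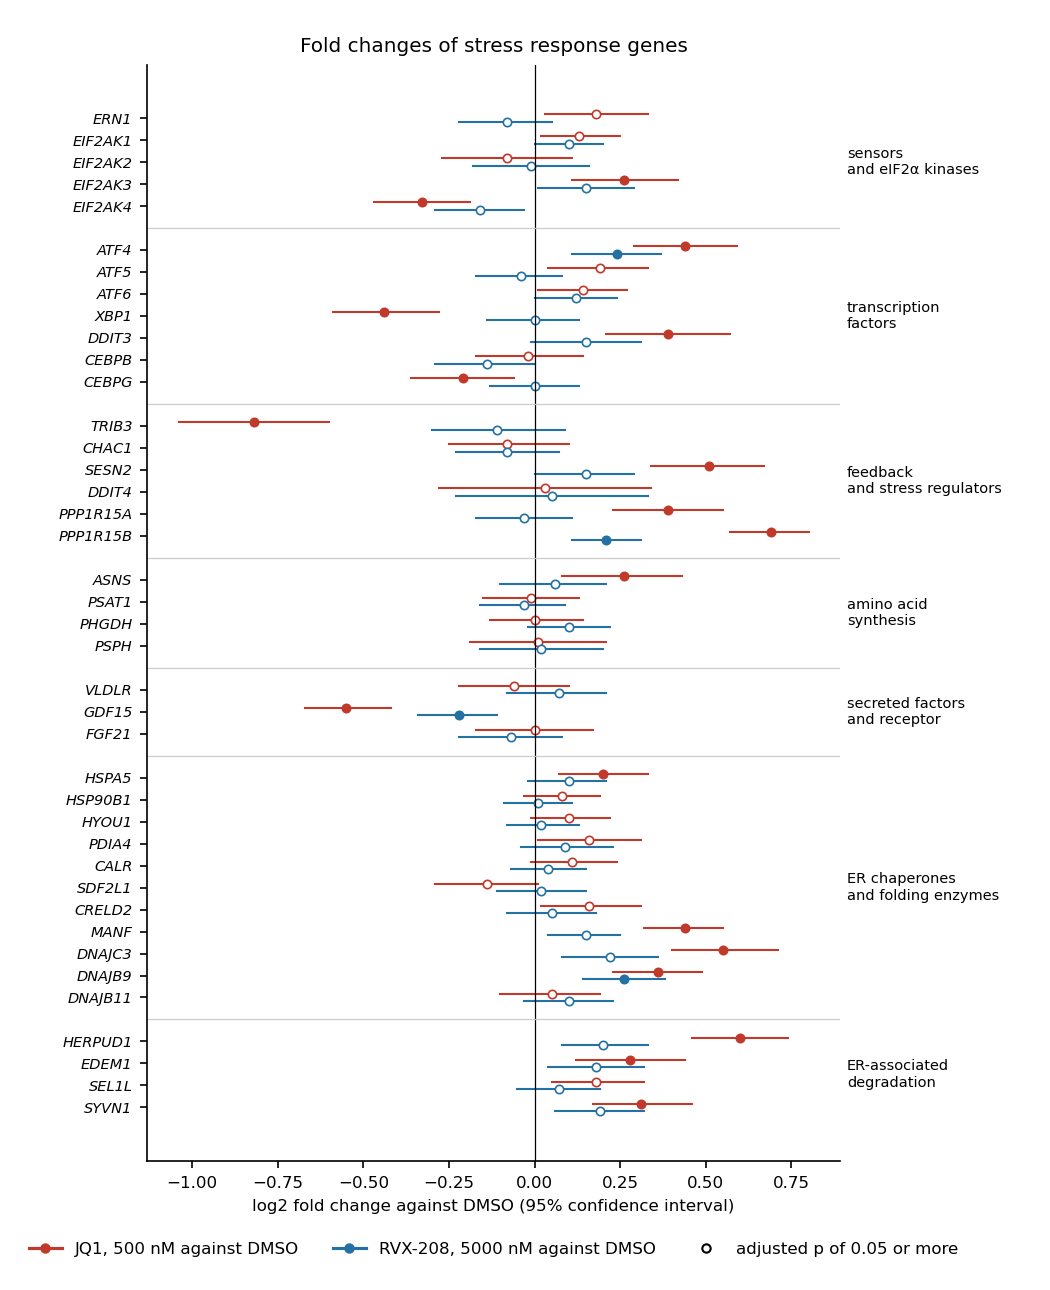
Log2 fold change of the 40 members tested with JQ1 against DMSO and RVX-208 against DMSO, grouped by role, with 95% confidence intervals and filled points for called genes. With JQ1 PPP1R15B at 0.69 and TRIB3 at −0.82 are the ends of the range, and the RVX-208 values lie between −0.22 and 0.26.

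RVX-208 changed few members. Against DMSO, 3 rose (ATF4, PPP1R15B and DNAJB9) and 1 fell (GDF15), so that 10.0% of the members were called beside 6.28% of all genes (3.06% higher and 3.22% lower). That share is near the background. The median member difference was 0.052 beside −0.023 over all genes. The arrays of the 2 groups did not overlap for 19 members (15 above and 4 below), beside 34.1% of all genes. None of the 4 calls held in all alternatives: leaving out 1 array gave 0 to 2 members higher and 0 lower. No member was called higher without any single DMSO array or without RVX-208 replicate 2 or 3, and 1 was without RVX-208 replicate 1. The count of rises was 0 on the housekeeping scale, 1 after cyclic loess normalization, 7 when dim genes were left out and 8 with an intensity trend in the variance. The JQ1 and RVX-208 comparisons share their DMSO arrays, so their values are given side by side without a measure of likeness.

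The direct comparison of the treatments, which uses no DMSO array in its difference, called 10 members: 7 higher with JQ1 and 3 lower, or 25.0% beside 10.9% of all genes (4.16% higher and 6.78% lower). The arrays of the inhibitors did not overlap for 28 members (20 with JQ1 above and 8 below), beside 42.8% of all genes. The median difference was 0.075 beside 0.003 over all genes. Higher with JQ1 were PPP1R15B, PPP1R15A, SESN2 and ERN1, given above, and 3 genes of the ER machinery. HERPUD1 was higher by 0.39 ± 0.06 (adjusted p = 0.00497), DNAJC3 by 0.34 ± 0.07 (adjusted p = 0.0165) and MANF by 0.29 ± 0.05 (adjusted p = 0.00839). Lower with JQ1 were TRIB3, given above, XBP1, with a difference of −0.43 ± 0.07 (adjusted p = 0.00514), and GDF15, with −0.32 ± 0.06 (adjusted p = 0.00835).

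Calls for XBP1, TRIB3, PPP1R15B and HERPUD1 held in all 17 alternatives of that comparison. Without JQ1 replicate 1 only 2 members were called higher, and the calls for MANF (adjusted p = 0.0647) and DNAJC3 (0.086) were among those lost. DNAJC3 was also lost without JQ1 replicate 2 (0.0856), RVX-208 replicate 1 (0.0503) or RVX-208 replicate 2 (0.0578), and GDF15 without JQ1 replicate 2 (0.0657). For the other 30 members no difference between the inhibitors was called. The unadjusted 95% confidence interval of that difference ran from 0.05 to 0.35 for ATF4 (adjusted p = 0.0888), from 0.06 to 0.42 for DDIT3 (adjusted p = 0.0922), from −0.04 to 0.27 for EIF2AK3 and from −0.03 to 0.23 for HSPA5. A p above the threshold does not show that the inhibitors acted alike on these genes.

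Other genes of the pathway, taken from 6 lists chosen with earlier results of these data known, also moved in both directions. Of 113 genes listed, 102 were tested; with JQ1, 19 rose and 14 fell (32.4% beside the 22.8% of all genes), with a median of 0.037. The balance depended on the scale, with 3 higher and 42 lower on the housekeeping scale. Without JQ1 replicate 1, 7 were higher and 11 lower; without JQ1 replicate 2, 7 were higher and 8 lower; without DMSO replicate 2, 11 were higher. With RVX-208, 5 rose and 5 fell (9.80% beside 6.28% of all genes). JQ1 against RVX-208 gave 3 higher and 8 lower, a share of 10.8% that is level with the 10.9% of all genes. The largest changes were among the other ATF4 targets, of which 7 of 31 rose and 8 fell with JQ1. That share called, 48.4%, stood beside 22.8% of all genes. CTH, the enzyme that makes cysteine from cystathionine, rose by 0.88 ± 0.07 (adjusted p = 0.000115), and BCL2L11, which encodes the death protein BIM, by 0.78 ± 0.07 (adjusted p = 0.000163). KLHL24, an adaptor of a ubiquitin ligase, rose by 0.48 ± 0.12 (adjusted p = 0.0185), a call lost without JQ1 replicate 1 (difference 0.49) or 2 (difference 0.46). On the housekeeping scale the KLHL24 difference was 0.31 and not called (adjusted p = 0.0511). NUPR1, a stress-induced chromatin protein, fell by 0.95 ± 0.08 (adjusted p = 0.00011), STC2, a secreted glycoprotein, by 0.89 ± 0.08 (adjusted p = 0.000221), and SLC7A11, the cystine importer, by 0.85 ± 0.07 (adjusted p = 0.000104).

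With RVX-208, CTH rose by 0.33 ± 0.06 (adjusted p = 0.0296), NUPR1 fell by 0.41 ± 0.07 (adjusted p = 0.0214) and SLC7A11 fell by 0.38 ± 0.06 (adjusted p = 0.0202), calls kept in 4, 3 and 4 of the 8 fits that leave out an array. JQ1 against RVX-208 called each of CTH, BCL2L11, NUPR1, STC2 and SLC7A11, in the main fit and without any 1 array. The differences were 0.55 for CTH, 0.63 for BCL2L11, −0.54 for NUPR1, −0.65 for STC2 and −0.48 for SLC7A11.

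The next lists, eIF2 with eIF2B and the mitochondrial stress relay, were near the background with JQ1. Their shares called higher were 12.5% and 14.3%, beside 10.7% of all genes. Among eIF2 and its exchange factor eIF2B, 1 of 8 rose: EIF2B2 by 0.25 ± 0.05 (adjusted p = 0.011), a call lost without JQ1 replicate 1 (0.0811). In the mitochondrial stress relay 1 of 7 rose: DELE1, which carries mitochondrial stress to the eIF2alpha kinases, by 0.25 ± 0.07 (adjusted p = 0.0341). The DELE1 call was lost without DMSO replicate 2 (0.059), DMSO replicate 3 (0.0875), JQ1 replicate 1 (0.147) or JQ1 replicate 2 (0.106). With RVX-208 DELE1 rose by 0.29 ± 0.06 (adjusted p = 0.0376), a call kept in 1 of 8 such fits. On the housekeeping scale neither JQ1 rise was called: 0.09 for EIF2B2 (adjusted p = 0.269) and 0.08 for DELE1 (adjusted p = 0.307).

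Beside 22.8% of all genes called with JQ1, the share was 19.2% among the other ER chaperones and folding genes. It was 35.3% among the other degradation genes and 38.5% among the other ER stress signalling genes. Of 26 other ER chaperones and folding genes, 4 rose with JQ1, led by the Golgi tether GOLGB1 (0.35 ± 0.09, adjusted p = 0.0305), SRP54 of the signal recognition particle (0.28 ± 0.06, adjusted p = 0.00829) and the HSP70 relative HSPA13 (0.24 ± 0.07, adjusted p = 0.0293). Their 1 fall was CREB3L3, a membrane-bound liver transcription factor listed there, by 0.46 ± 0.06 (adjusted p = 0.000907). Of 17 other degradation genes 5 rose, led by EDEM3 (0.59 ± 0.08, adjusted p = 0.00125), a relative of EDEM1, the selenoprotein gene SELENOS (0.45 ± 0.10, adjusted p = 0.015) and the ubiquitin ligase gene RNF139 (0.31 ± 0.07, adjusted p = 0.0128). UBE2G2, a ubiquitin-conjugating enzyme of this route, fell by 0.21 ± 0.05 (adjusted p = 0.0161). Of 13 other ER stress signalling genes 1 rose, the calcium-binding protein gene CIB1 by 0.21 ± 0.06 (adjusted p = 0.0483), and 4 fell. The falls included CREB3L1, a relative of ATF6, by 0.46 ± 0.07 (adjusted p = 0.00174), MBTPS2, one of the proteases that release ATF6 from the membrane, by 0.31 ± 0.06 (adjusted p = 0.00483), and BAX, a death effector, by 0.26 ± 0.06 (adjusted p = 0.015). Calls for CREB3L3, EDEM3, CREB3L1 and MBTPS2 held without any 1 array. The signal of CREB3L1 was low, with a mean log2 signal under 6.

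Several calls of smaller changes were lost with 1 array fewer, while the differences mostly kept their size in those fits. Without JQ1 replicate 2 the calls were lost for GOLGB1 (adjusted p = 0.21), SRP54 (0.0671), HSPA13 (0.14), SELENOS (0.056), RNF139 (0.084), UBE2G2 (0.0876), CIB1 (0.161) and BAX (0.104). Without JQ1 replicate 1 they were lost for HSPA13 (0.09), SELENOS (0.0955), UBE2G2 (0.0602) and CIB1 (0.156). GOLGB1, HSPA13 and CIB1 were also lost without DMSO replicate 2 (0.0531, 0.0502 and 0.0765) or 3 (0.0686, 0.0555 and 0.11), and CIB1 without any 1 RVX-208 array (0.0567 to 0.0763). The difference of GOLGB1 went from 0.35 to 0.23 without JQ1 replicate 2, while without 1 or the other JQ1 array HSPA13 lay at 0.23 to 0.26, SELENOS at 0.41 to 0.49, UBE2G2 at −0.22 to −0.20 and CIB1 at 0.21. On the housekeeping scale the rises were smaller and not called. They were 0.18 for GOLGB1, 0.12 for SRP54, 0.08 for HSPA13, 0.28 for SELENOS, 0.14 for RNF139 and 0.04 for CIB1. Their adjusted p ran from 0.066 to 0.648. The falls of UBE2G2 and BAX stayed called there.

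The 5 other pathway genes that rose with RVX-208 were CTH and DELE1, given above, HSPA13 (0.27 ± 0.06, adjusted p = 0.0404) and, named after their values were seen, PCK2 (0.20 ± 0.05, adjusted p = 0.0449) and FAF2 (0.27 ± 0.06, adjusted p = 0.0441). The 5 that fell were NUPR1 and SLC7A11, given above, CREB3L1 by 0.39 ± 0.06 (adjusted p = 0.0181), CREB3L3 by 0.28 ± 0.05 (adjusted p = 0.0257) and, again named after its value was seen, ADM2 by 0.25 ± 0.05 (adjusted p = 0.0344). Leaving out 1 array at a time kept the CREB3L1 call in 5 of 8 fits, CREB3L3 in 2 and HSPA13 in 1. The low signal of CREB3L1 limits this call too.

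**Figure D5:**
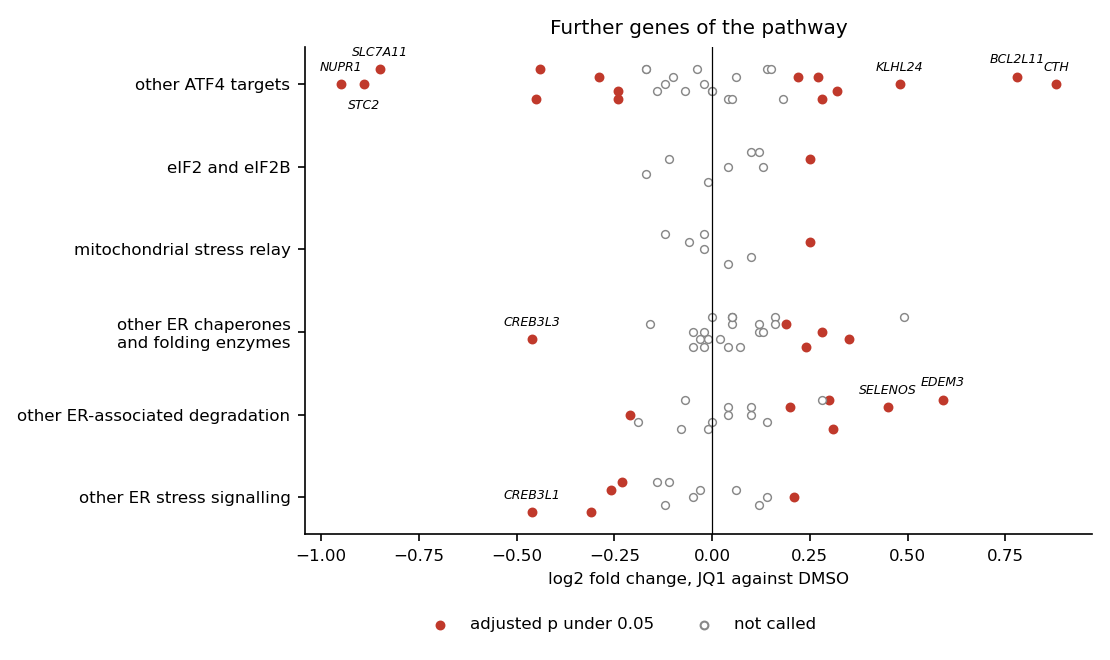
Log2 fold change with JQ1 against DMSO for the 102 other pathway genes tested, in 6 lists; red points were called, open points were not, and vertical offsets within a list only separate points. CTH and BCL2L11 lie at 0.88 and 0.78, while NUPR1, STC2 and SLC7A11 lie at −0.95, −0.89 and −0.85.

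Some probe sets could also bind pseudogene transcripts: RefSeq names pseudogenes for 7 members, including ATF4, XBP1, ASNS and HSPA5, and their signals are uncertain to that extent.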

How the data were processed

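The arrays were summarised by the authors with RMA, R 2.15.3 and limma 3.14.4, per the submitters' processing notes; the genome build behind the array annotation is not given in the sources used here. The deposited values are log2 signals per probe set, 1 column per array (8 arrays, 19816 probe sets). The authors' table also holds log2 fold changes, an F score and p-values, as deposited and per the file headers; its fold changes equalled the group differences computed here within 1e-04 for 17844 (JQ1) and 17845 (RVX-208) of 17845 genes, and none of its values were used further.

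Probe sets with 1 gene symbol were kept (17859; 997 with several genes and 960 with none were left out), and 14 genes with more than 1 probe set are represented by their brightest probe set. A group-means model of all 8 arrays was fitted in limma 3.58.1 (R 4.3.3) with eBayes (8.55 degrees of freedom), two-sided, with Benjamini-Hochberg adjustment over 17845 genes in each of 3 comparisons. The fit was tested on simulated data. Motifs and sequences came from the RefSeq promoter table, and figures were drawn with matplotlib 3.10.9.

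Members, role groups and the 6 other lists were chosen with earlier results of these data known. Values in every array are given for members called with JQ1 at an absolute log2 fold change of at least 0.3, for those called with RVX-208 and for ATF4, ATF6, XBP1, ERN1, EIF2AK3, DDIT3 and HSPA5; from each other list up to 3 called genes with the largest rise and 3 with the largest fall with JQ1 are named; HEXIM1, SERPINI1 and MYC check the treatments. Alternatives were other scalings (cyclic loess, array medians, housekeeping genes), leaving out genes with a mean signal under 6, keeping all probe sets, an intensity trend, fitting only the groups compared, array weights, the replicate number as a block, and leaving out each array. The main fit did not pair arrays by replicate number. Deviations from the group means of same-numbered arrays correlated at −0.15 to 0.076, and those of differently numbered arrays at −0.078 to 0.08. In groups of 2 or 3 arrays the deviations are bound to each other, so these values cannot decide whether the arrays were paired.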

Additional observations from a re-analysis of the deposited data

How the results depend on the processing

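No called member changed direction in any of the 17 alternatives; what moved were counts of calls and, with the scaling, the members' median. Centring on housekeeping genes gave a median of −0.030 for JQ1 and −0.047 for RVX-208 against DMSO and 0.009 for JQ1 against RVX-208, where all genes had −0.206, −0.122 and −0.063. On that scale members counted 9 higher and 10 lower with JQ1, 0 higher and 3 lower with RVX-208, and 5 lower in JQ1 against RVX-208; other pathway genes counted 3 higher and 42 lower with JQ1 and 2 higher and 15 lower with RVX-208. Calls over all genes rose to 8560 from 4066 with JQ1 and to 3721 from 1120 with RVX-208. The share of all calls that were higher, 47.1% with JQ1, 48.8% with RVX-208 and 38.1% in JQ1 against RVX-208, became 10.9%, 8.20% and 18.3% there, 57.7%, 59.2% and 46.7% after median centring, and 58.3% with RVX-208 after cyclic loess.

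For RVX-208 against DMSO, cyclic loess gave 1 member and 3 other genes higher, median centring 0 members lower, leaving out dim genes 7 members and 10 other genes higher (2067 calls over all genes, from fewer genes tested), the intensity trend 8 members higher and 2 lower with 15 and 9 other genes (2248 calls), and a fit of only the 2 groups 0 members lower and 1 other gene higher (756 calls). In JQ1 against RVX-208, the intensity trend gave 5 members lower and 7 higher and 16 lower other genes, and leaving out dim genes 6 other genes higher. With the replicate number as a block, no member or other gene was called with RVX-208 (0, with 80 calls over all genes). Other genes with JQ1 counted 9 higher there, and JQ1 against RVX-208 counted 4 members higher and 4 other genes lower (1050 calls). The labels do not say whether same-numbered arrays belong together, and the reason for the calls lost there was not tested.

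Leaving out 1 array gave, with JQ1, 9 to 15 members higher and 4 to 5 lower, and 7 to 18 and 8 to 14 other genes (2565 to 3788 calls over all genes). With RVX-208 it gave 0 to 2 and 0 members, and 0 to 3 and 0 to 4 other genes. In JQ1 against RVX-208 it gave 2 to 6 and 2 to 3 members, and 2 to 4 and 4 to 9 other genes. Apart from the settings' own construction, the cause of these shifts was not tested. The number of arrays limits the precision.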
